A study of Mus musculus with 32 samples.

Results

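The genes described here parted Acod1 knockout (KO) from wild-type (WT) macrophages in every treatment. They are Gdf3, Rps4l, Gm42031, Gm42047, Slc15a2, Capn11, Neo1, Eya1 and Slc38a7, which make up 9 of the 56953 genes in the deposited count table, and they were chosen from these same libraries because KO and WT differed the same way across treatments, so every difference between KO and WT given for them is a description and carries no test. The cells were bone marrow-derived macrophages, grown in L929-cell supernatant, a source of the growth factor M-CSF, from the leg bones of mice aged 8 to 12 weeks. The 8 groups, with 4 libraries each, were KO and WT cells left untreated (control), given 100 nM dexamethasone (a synthetic glucocorticoid), given 100 ng lipopolysaccharide (LPS, a bacterial cell-wall product; no volume is stated), or given dexamethasone together with LPS, always for 24 h. KO cells came from Irg1-/- mice (Irg1 is another name of Acod1) from the Jackson laboratory. WT cells came from Irg1+/+ mice of the same supplier or from C57BL/6J mice of Janvier Labs, the labels do not say which for a given library, and genotype and source of the animals therefore cannot be told apart. All libraries carry the strain label C57BL/6J.

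Acod1 encodes the enzyme that makes itaconate, a metabolite that macrophages accumulate after LPS. Dexamethasone acts through the glucocorticoid receptor, a transcription factor that binds DNA and lowers many inflammatory genes. The 9 genes have products of different kinds: 1 encodes a secreted ligand of the TGF-beta superfamily (Gdf3), 1 a cell-surface receptor (Neo1), 2 encode membrane transporters (Slc15a2 and Slc38a7), 1 a protease (Capn11) and 1 a transcriptional coactivator (Eya1). Of the remaining 3, the GENCODE vM21 annotation lists Gm42031 and Gm42047 as long intergenic non-coding RNAs and Rps4l as a transcribed processed pseudogene.

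Libraries held 17559079 to 25049200 counted read pairs. After a filter for low counts 14427 genes were tested, among them all 9, with Capn11 kept through its WT libraries alone. Levels are in CPM (counts per 1000000 of the TMM-scaled library size), and differences are log2 values ± SE from edgeR. A gene was called where its Benjamini-Hochberg adjusted p over all tested genes was under 0.05. All WT libraries were sequenced in lane 3, as were 3 KO libraries of the control group and 3 of the dexamethasone group, while the 8 KO libraries with LPS or both agents came from lane 2. In the treatments with LPS each genotype has its own lane, and a fit with lane as a term rests on the 1 remaining KO dexamethasone library, from lane 2. In KO cells, LPS against control and both agents against dexamethasone alone also set lane 2 libraries against mostly lane 3 libraries. Treatment and lane are therefore largely tied in these KO contrasts, while the WT contrasts lie within lane 3. Acod1 itself was at 4990 ± 133 CPM in KO and 6480 ± 249 CPM in WT with LPS and, in the opposite direction, at 3930 ± 195 CPM in KO and 2740 ± 34.8 CPM in WT with both (SD, n = 4 each). Its levels were 5.82 ± 0.747 CPM in KO and 9.89 ± 1.26 CPM in WT control libraries and 0.49 ± 0.151 CPM in KO and 0.868 ± 0.31 CPM in WT with dexamethasone, and since the labels do not give the deleted part, a count over all exons does not check the KO label. WT LPS replicate 3 stood apart from its replicates. Its 3 pairs with them had a chi-square per degree of freedom of 16.1 to 16.7, where the other 45 replicate pairs had 2.01 to 5.57. Results with WT LPS libraries rest on it in part, and their values without it are given where a call or a value moved and, for the counts, with the summary over the genes. Macrophage markers, 10 of 10 tested, summed to between 17900 and 31800 CPM in every library. Their sum was 21700 to 24000 CPM in KO and 25200 to 27400 CPM in WT control libraries, 24200 to 25200 CPM in KO and 26800 to 27600 CPM in WT with dexamethasone, 19200 to 20400 CPM in KO and 17900 to 19800 CPM in WT with LPS, and 23000 to 23700 CPM in KO and 30900 to 31800 CPM in WT with both. Summed, the B cell markers, 2 of 5 tested, were lower in KO except with LPS, where the genotypes overlapped. Their sum was 75.6 to 87.2 CPM in KO and 99.2 to 107 CPM in WT control libraries, 41.5 to 50 CPM in KO and 52.4 to 55.0 CPM in WT with dexamethasone, 0.469 to 1.01 CPM in KO and 0.170 to 0.716 CPM in WT with LPS, and 1.03 to 1.7 CPM in KO and 2.83 to 3.77 CPM in WT with both. Ighm made up nearly all of the control sums, at 80.6 CPM in KO and 101 CPM in WT on average. Cd79b of the same list was not lower in KO. It averaged 1.94 CPM in KO and 1.78 CPM in WT control libraries, and 1.04 and 0.948 CPM with dexamethasone. With LPS it averaged 0.31 CPM in KO and 0.132 CPM in WT, and with both 0.668 and 0.649 CPM. The defining gene Ms4a1 was at or near 0, and the part of either marker list in the results below was not tested. Summed markers reached at most 17.3 CPM for dendritic cells, 13.8 CPM for neutrophils, 4.96 CPM for T and NK cells, 3.23 CPM for fibroblasts, 1.15 CPM for mast cells and 0.852 CPM for the erythroid line.

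Rps4l is a processed copy of Rps4x, the X-linked gene for a protein of the small ribosomal subunit, and reads of the abundant Rps4x could in principle be counted for its copy, so the stretches that differ are shown. In the GENCODE vM21 transcripts (build GRCm38), Rps4l-202 and Rps4x-201 align over 797 columns with 80.1% identity, 146 mismatches and a longest run without any difference of 35 bases. The 90-base stretch with the most mismatches is printed with its 26 mismatches in capitals, from base 31 of the Rps4l transcript and base 125 of the Rps4x transcript.
Rps4l: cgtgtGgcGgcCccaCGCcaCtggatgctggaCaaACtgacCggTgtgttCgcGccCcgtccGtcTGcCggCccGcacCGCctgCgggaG
Rps4x: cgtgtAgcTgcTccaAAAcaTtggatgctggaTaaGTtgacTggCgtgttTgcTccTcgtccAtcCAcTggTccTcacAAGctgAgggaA

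Several of the genes answered to dexamethasone, so the bases upstream of their starts were searched for TGTTCT, the hexamer that a palindromic glucocorticoid response element holds on each strand, in both directions. RefSeq (GRCm38.p6) gave a 250-base upstream window for 5 of the 9 genes, Gm42031, Slc15a2, Capn11, Neo1 and Slc38a7. The windows of Slc15a2 and Neo1 end where a GENCODE vM21 transcript of the gene starts. For Gm42031, Capn11 and Slc38a7 no such transcript starts there, so their windows stand before a RefSeq start only. The hexamer occurred in 2 of the 5 windows, at 2 places in that of Slc15a2 and at 1 place, on the opposite strand, in that of Gm42031. Among all 32851 windows 16.1% held at least 1 such hexamer and 1.81% held 2 or more. The full palindrome (the reverse complement of the hexamer, any 3 bases, then the hexamer) was in none of the 5 windows and in 0.00913% of all. The window of Slc15a2, chr16:36784963-36785212 on the minus strand of GRCm38.p6, is printed with both hexamers in capitals. It was picked because Slc15a2 was higher with both agents than with LPS alone in either genotype, which also held for Gm42031. Dexamethasone alone gave Slc15a2 values that were not called, 0.09 in KO (adjusted p = 0.716, edgeR) and 0.11 in WT (adjusted p = 0.546, edgeR). Whether the hexamers bear on any response was not tested.
Slc15a2: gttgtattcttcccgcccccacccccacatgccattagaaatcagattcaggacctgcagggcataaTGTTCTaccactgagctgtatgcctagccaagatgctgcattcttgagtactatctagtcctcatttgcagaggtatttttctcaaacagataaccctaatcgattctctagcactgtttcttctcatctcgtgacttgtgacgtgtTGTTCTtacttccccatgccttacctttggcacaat

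**Figure D1:**
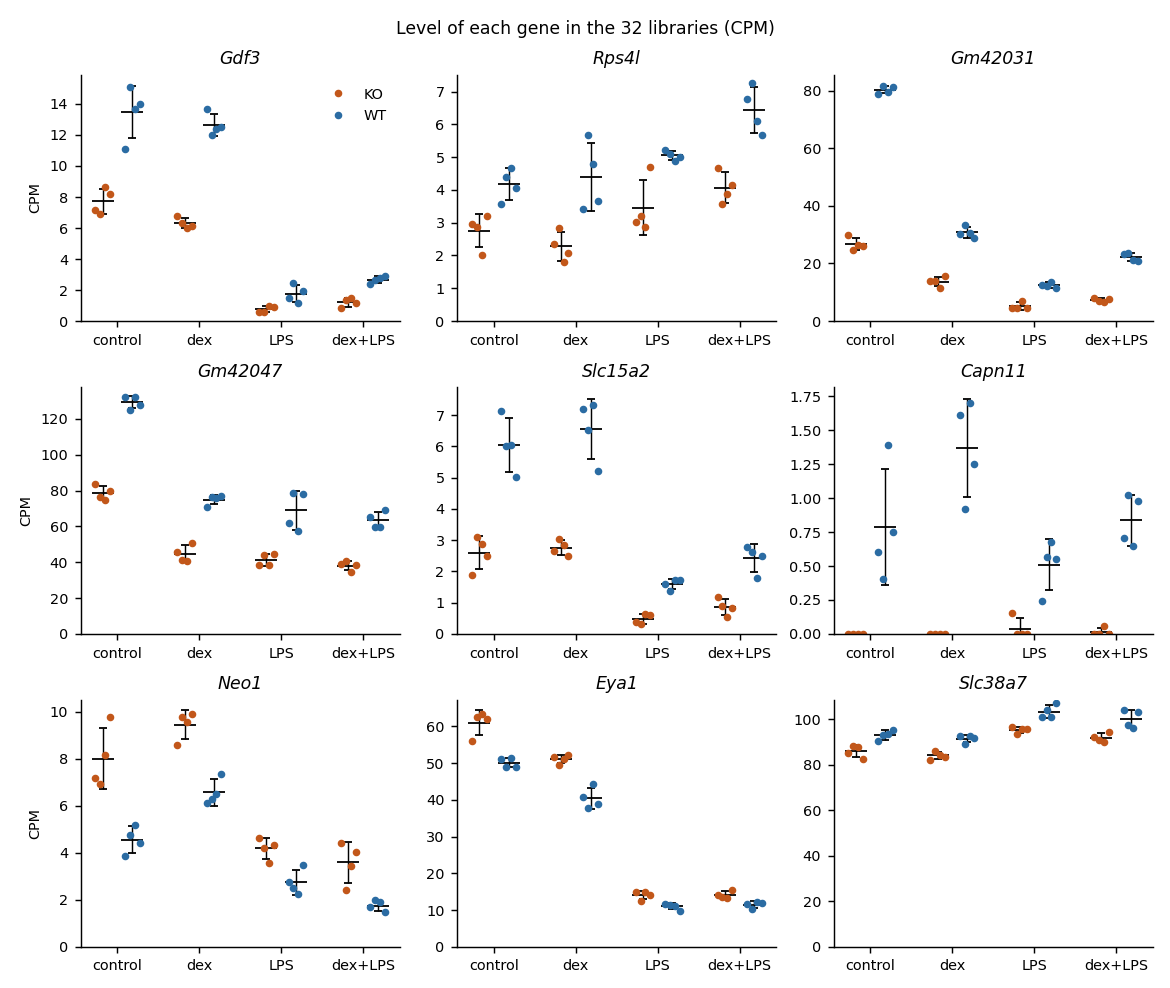
Level of each of the 9 genes in CPM (linear axes from 0) in the 4 treatments, KO at the left and WT at the right of each pair; points are libraries, horizontal bars are means and error bars are SD over 4 libraries. In no panel and no treatment do KO and WT points overlap; Neo1 and Eya1 are higher in KO, the other 7 are lower.

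Gdf3 encodes a secreted ligand that signals through activin and nodal receptors and SMAD proteins. The deposited table, on the GENCODE vM32 annotation, places it (ENSMUSG00000030117) at chr6:122582362-122587046 on the minus strand, with 3 exons. Untreated libraries held 7.16, 6.92, 8.64 and 8.18 CPM in KO, against 11.1, 15.1, 13.7 and 14 CPM in WT. With dexamethasone the levels were 6.76, 6.30, 6.02 and 6.15 CPM in KO and 13.7, 12.0, 12.4 and 12.5 CPM in WT. Every KO library lay below every WT library, and the WT mean with dexamethasone was near that of untreated WT cells. LPS left 0.573, 0.604, 0.997 and 0.903 CPM in KO, against 1.51, 2.44, 1.14 and 1.93 CPM in WT. Both agents together gave 0.836, 1.34, 1.48 and 1.14 CPM in KO, against 2.38, 2.63, 2.75 and 2.89 CPM in WT. The KO minus WT difference was -0.80 ± 0.108 in control, -1.0 ± 0.112 with dexamethasone, -1.18 ± 0.239 with LPS and -1.15 ± 0.193 when both were given (log2 ± SE), without a test. In these bulk cultures, fewer cells of a type and less RNA per cell cannot be told apart.

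Among the 9, Gdf3 had the most negative estimate with LPS against control in each genotype, a log2 fold change of -3.33 ± 0.178 in KO (adjusted p = 1.53e-22, edgeR) and -2.95 ± 0.142 in WT (adjusted p = 2.55e-24, edgeR). Dexamethasone added to LPS raised it over LPS alone by 0.64 ± 0.255 in KO (adjusted p = 0.0416, edgeR) and 0.61 ± 0.181 in WT (adjusted p = 0.00257, edgeR). Without WT LPS replicate 3, which had the lowest WT level with LPS, the WT values were -2.79 for LPS against control and 0.46 for both against LPS (adjusted p = 0.028, edgeR), and the KO minus WT difference with LPS was -1.34. The KO call was lost with RLE scaling (adjusted p = 0.0508; over all alternatives 0.017 to 0.14), without the filter, in a fit of the compared groups alone, and without KO LPS replicate 1 or 2 or KO dexamethasone plus LPS replicate 2, 3 or 4. Dexamethasone alone changed it by -0.30 ± 0.117 in KO (adjusted p = 0.0308, edgeR) and -0.10 ± 0.104 in WT (adjusted p = 0.474, edgeR). That KO call was lost with lane as a term (adjusted p = 0.0516), on lane 3 libraries alone (adjusted p = 0.0766; over all alternatives 0.0196 to 0.118), and without KO control replicate 3 or 4 or KO dexamethasone replicate 2, 3 or 4.

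Neo1 encodes neogenin, a receptor for netrins and repulsive guidance molecules and a relative of Dcc. It (ENSMUSG00000032340) spans 161755 bases at chr9:58781970-58943724 on the minus strand. It was one of the 2 genes that were higher in KO. Control cells held 7.16, 6.92, 8.14 and 9.77 CPM in KO, against 3.86, 4.76, 5.18 and 4.43 CPM in WT. Dexamethasone-treated cells held 8.56, 9.76, 9.56 and 9.90 CPM in KO, against 6.10, 6.28, 6.51 and 7.36 CPM in WT. The groups did not overlap, and the highest untreated KO library, replicate 4, stood at the level of the KO libraries with dexamethasone. LPS-treated cells held 4.63, 4.18, 3.57 and 4.34 CPM in KO, against 2.77, 2.50, 2.24 and 3.47 CPM in WT. Cells given both held 4.43, 2.42, 3.45 and 4.05 CPM in KO, against 1.67, 1.98, 1.89 and 1.47 CPM in WT. With LPS the lowest KO library and the highest WT library were close, at 3.57 and 3.47 CPM. The difference was 0.82 ± 0.132 in control, 0.53 ± 0.122 with dexamethasone, 0.61 ± 0.163 with LPS and 1.02 ± 0.177 when both were given.

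LPS lowered Neo1, at -0.95 ± 0.135 in KO (adjusted p = 1.81e-08, edgeR) and -0.73 ± 0.159 in WT (adjusted p = 5.93e-05, edgeR). Dexamethasone raised it in WT by 0.53 ± 0.136 (adjusted p = 0.00107, edgeR), and the change in KO was 0.23 ± 0.118 (adjusted p = 0.105, edgeR). In a fit of the compared groups alone the KO change was also called (0.26 ± 0.105, adjusted p = 0.0366; over all alternatives 0.0211 to 0.382), as it was without KO control replicate 4 (0.35). Dexamethasone plus LPS against LPS lowered it in WT, at -0.64 ± 0.188 (adjusted p = 0.00234, edgeR), with a value of -0.23 ± 0.154 in KO (adjusted p = 0.262, edgeR). Without WT LPS replicate 3 the WT values were -0.64 for LPS against control and -0.73 for both against LPS, and the KO minus WT difference with LPS was 0.52. Whether these responses differ between the genotypes was not tested, since the genes were chosen on the genotype difference.

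Slc15a2 encodes PEPT2, a proton-coupled importer of di- and tripeptides, including bacterial muramyl dipeptide. It (ENSMUSG00000022899) lies at chr16:36570539-36605324 on the minus strand, with 24 exons. Levels were low. In untreated cells they were 1.90, 3.10, 2.89 and 2.48 CPM in KO and 7.12, 6.01, 6.06 and 5.02 CPM in WT. Dexamethasone gave 2.66, 3.03, 2.85 and 2.49 CPM in KO and 7.21, 6.52, 7.31 and 5.22 CPM in WT. All KO libraries lay well under all WT libraries. After LPS they were at 0.365, 0.302, 0.629 and 0.602 CPM in KO and 1.61, 1.36, 1.72 and 1.71 CPM in WT. After both they were at 1.18, 0.895, 0.548 and 0.839 CPM in KO and 2.78, 2.63, 1.78 and 2.49 CPM in WT. The lowest WT library of any treatment (1.36 CPM) lay above every KO library with LPS or both, and below every untreated KO library. The difference was -1.22 ± 0.157 in control, -1.24 ± 0.154 with dexamethasone, -1.76 ± 0.279 with LPS and -1.47 ± 0.220 when both were given.

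LPS lowered Slc15a2, at -2.46 ± 0.249 in KO (adjusted p = 1.73e-12, edgeR) and -1.92 ± 0.175 in WT (adjusted p = 6.27e-14, edgeR). Both agents against LPS raised it by 0.89 ± 0.311 in KO (adjusted p = 0.0199, edgeR) and 0.60 ± 0.199 in WT (adjusted p = 0.00668, edgeR). The KO rise lost its call without KO LPS replicate 1 or 2 or KO dexamethasone plus LPS replicate 1, at log2 values of 0.71 to 0.78. Dexamethasone alone gave 0.09 ± 0.172 in KO (adjusted p = 0.716, edgeR) and 0.11 ± 0.141 in WT (adjusted p = 0.546, edgeR). A gene without a symbol (ENSMUSG00000120777) lies inside the Slc15a2 interval on the same strand, at chr16:36585468-36590490, and shares no exon base with it. It averaged 0.144 ± 0.0736 CPM in KO and 0.571 ± 0.258 CPM in WT with LPS (SD, n = 4 each) and was called lower in KO with LPS (-1.91, adjusted p = 0.0209, edgeR) and with both (-1.66, adjusted p = 0.00601, edgeR), with -0.55 (adjusted p = 0.786, edgeR) in control and -1.23 (adjusted p = 0.141, edgeR) with dexamethasone.

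Slc38a7 encodes SNAT7, a transporter that exports glutamine from lysosomes. It (ENSMUSG00000036534) lies at chr8:96562548-96580167 on the minus strand. It had the smallest difference of the 9. Control libraries ranged from 82.4 to 88.2 CPM in KO and from 90.2 to 95.3 CPM in WT, and with dexamethasone from 82.2 to 86.1 CPM in KO and from 89.0 to 92.7 CPM in WT. With LPS they ranged from 93.5 to 96.5 CPM in KO and from 101 to 107 CPM in WT, and with both from 89.9 to 94.4 CPM in KO and from 96.1 to 104 CPM in WT. The groups did not overlap, with means in control, for example, of 85.8 CPM in KO and 93 CPM in WT. The log2 difference was -0.12 ± 0.0351 in control, -0.12 ± 0.0351 with dexamethasone, -0.11 ± 0.0351 with LPS and -0.13 ± 0.0349 when both were given. LPS raised it by 0.15 ± 0.0351 in each genotype (adjusted p = 0.000142 in KO and 0.000167 in WT, edgeR), a direction that turned to -0.09 in KO and -0.11 in WT when libraries were scaled by their totals alone. The KO call was lost with lane as a term (0.16, adjusted p = 0.0551, edgeR). Dexamethasone gave -0.03 ± 0.0351 in KO (adjusted p = 0.509, edgeR) and -0.03 ± 0.035 in WT (adjusted p = 0.587, edgeR).

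Capn11 encodes a calpain, a calcium-dependent cysteine protease known mainly from testis. It (ENSMUSG00000058626) lies at chr17:45941130-45970251 on the minus strand. KO libraries were almost free of its reads: 4 counts in 2 of 16 KO libraries, against 284 counts in 16 of 16 WT libraries. In control, no KO library had a count, which allows up to 0.0327 CPM over the group, and WT libraries had 12, 8, 27 and 14 counts. With dexamethasone KO again had none, allowing up to 0.0352 CPM, and WT libraries had 32, 23, 34 and 28 counts. KO replicate 1 with LPS had 3 counts and the others 0, against 5, 10, 13 and 10 counts in WT. KO replicate 3 with both agents had 1 count and the others 0, against 14, 22, 12 and 20 counts in WT. Set against 3 counts over the group, Capn11 was at least 23.9-fold lower in KO in control and at least 38.1-fold lower with dexamethasone. Counted directly it was 12.5-fold lower with LPS (95% interval 3.98 to 63.4) and 68.7-fold lower with both (11.9 to 2750), intervals that cover counting error alone. Each of these ratios rests on the 1 KO library with counts. Without it no KO count is left, and set against 3 counts over the remaining 3 KO libraries Capn11 was at least 9.31-fold lower in KO with LPS and at least 17.7-fold lower with both. In WT its changes with treatment were not called: 0.79 ± 0.358 for dexamethasone against control (adjusted p = 0.064, edgeR) and -0.63 ± 0.418 for LPS against control (adjusted p = 0.173, edgeR). Both agents against LPS gave 0.73 ± 0.412 (adjusted p = 0.113, edgeR), and against dexamethasone alone -0.69 ± 0.352 (adjusted p = 0.0774, edgeR). The dexamethasone value passed in a fit of the compared groups alone (0.81, adjusted p = 0.0301; over all alternatives 0.0108 to 0.227) and without WT control replicate 3 or WT dexamethasone replicate 2. The value for both agents against dexamethasone alone passed in the compared groups alone (-0.66, adjusted p = 0.0321, edgeR), with libraries scaled by their totals (-0.88, adjusted p = 0.0234; over all alternatives 0.0234 to 0.192) and without WT dexamethasone replicate 2 (-0.84).

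Eya1 encodes a protein phosphatase and transcriptional coactivator. It (ENSMUSG00000025932) spans chr1:14239178-14380459 on the minus strand. It was the other gene that was higher in KO, by a small amount. KO libraries held 56.0 to 63.3 CPM in control and WT libraries 49.0 to 51.3 CPM. Dexamethasone gave 49.5 to 52.3 CPM in KO and 37.8 to 44.4 CPM in WT. LPS gave 12.6 to 14.9 CPM in KO and 9.80 to 11.6 CPM in WT, and both agents gave 13.2 to 15.5 CPM in KO and 10.2 to 12.2 CPM in WT. The groups were separate in each treatment, with log2 differences of 0.28 ± 0.0527, 0.34 ± 0.0541, 0.36 ± 0.0769 and 0.29 ± 0.0747 in the order control, dexamethasone, LPS and both. LPS lowered Eya1, at -2.11 ± 0.0618 in KO (adjusted p = 1.99e-33, edgeR) and -2.19 ± 0.0656 in WT (adjusted p = 5.76e-33, edgeR). Dexamethasone lowered it, at -0.26 ± 0.0522 in KO (adjusted p = 5.18e-05, edgeR) and -0.31 ± 0.0545 in WT (adjusted p = 3.58e-06, edgeR). Added to LPS it gave -0.01 ± 0.0731 in KO (adjusted p = 0.948, edgeR) and 0.06 ± 0.0787 in WT (adjusted p = 0.542, edgeR).

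Rps4l is a single-exon copy of Rps4x on another chromosome. It (ENSMUSG00000063171) lies at chr6:148256098-148257431 on the plus strand, inside the interval of Tmtc1, which runs on the minus strand, was at 0.0342 CPM on average and was not tested. Control libraries held 2.95, 2.86, 2.02 and 3.22 CPM in KO, against 3.56, 4.41, 4.67 and 4.06 CPM in WT. Libraries with dexamethasone held 2.36, 2.85, 1.81 and 2.08 CPM in KO, against 3.43, 5.68, 4.80 and 3.66 CPM in WT. KO and WT did not overlap, although single libraries of each genotype came close in control. Libraries with LPS held 3.02, 3.22, 2.88 and 4.70 CPM in KO, against 5.21, 5.11, 4.89 and 5.01 CPM in WT. Libraries with both held 4.67, 3.58, 3.89 and 4.15 CPM in KO, against 6.77, 7.25, 6.10 and 5.67 CPM in WT. KO replicate 4 with LPS was just under the lowest WT library, and the log2 difference was -0.59 ± 0.166, -0.96 ± 0.169, -0.56 ± 0.162 and -0.67 ± 0.150 in the order control, dexamethasone, LPS and both. With lane as a term it was -0.62 ± 0.181, -0.92 ± 0.187, -0.4 ± 0.36 and -0.5 ± 0.356 in the same order. In that fit the differences with LPS and with both were little more than 1 SE from 0.

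The parent gene Rps4x was at 763 ± 32.2 CPM in KO and 775 ± 19.8 CPM in WT control libraries and at 723 ± 9.87 CPM in KO and 697 ± 8.54 CPM in WT with dexamethasone (SD, n = 4 each). Its KO minus WT difference was -0.02 (adjusted p = 0.931, edgeR) and 0.05 (adjusted p = 0.66, edgeR) in those treatments. It was lower in KO, as Rps4l was, in the remaining treatments. With LPS it averaged 366 ± 23.5 CPM in KO and 397 ± 18.7 CPM in WT (-0.12, adjusted p = 0.0242, edgeR), and with both agents 455 ± 9.16 CPM in KO and 621 ± 13.4 CPM in WT (-0.45, adjusted p = 1.31e-15, edgeR). LPS lowered Rps4x, at -1.06 in KO (adjusted p = 8.83e-31, edgeR) and -0.96 in WT (adjusted p = 4.51e-29, edgeR). For Rps4l the same contrast gave positive values that were not called, 0.31 ± 0.172 in KO (adjusted p = 0.0993, edgeR) and 0.28 ± 0.156 in WT (adjusted p = 0.104, edgeR). Rps4l was raised by both agents against LPS in WT (0.35 ± 0.147, adjusted p = 0.0306, edgeR), a call lost without WT LPS replicate 3 or 4 or WT dexamethasone plus LPS replicate 1 or 2, and was at 0.25 ± 0.165 in KO (adjusted p = 0.256, edgeR). Against dexamethasone alone, both agents raised it by 0.84 ± 0.173 in KO (adjusted p = 2.63e-05, edgeR) and 0.55 ± 0.146 in WT (adjusted p = 0.000885, edgeR).

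Gm42031 (ENSMUSG00000110386), at chr8:85852501-85858918 on the minus strand, had the widest gap between the libraries of the genotypes among the tested genes, taking each gene's smallest gap over the 4 treatments. Untreated KO libraries held 29.9, 24.8, 26.4 and 26.2 CPM, against 78.9, 81.7, 79.6 and 81.2 CPM in WT. KO libraries with dexamethasone held 13.9, 13.8, 11.6 and 15.5 CPM, against 30.3, 33.4, 30.4 and 29 CPM in WT. The highest KO library in each of these treatments stayed far below the lowest WT library. KO libraries with LPS held 4.48, 4.48, 7.08 and 4.64 CPM, against 12.6, 12.2, 13.7 and 11.6 CPM in WT. KO libraries with both held 8.16, 7.07, 6.58 and 7.55 CPM, against 23.3, 23.7, 21.2 and 20.7 CPM in WT. In each genotype the order of the means was control, dexamethasone, both, LPS, and KO replicate 3 with LPS alone reached into the range of the KO libraries with both agents. The difference was -1.58 ± 0.0682 in control, -1.17 ± 0.0788 with dexamethasone, -1.27 ± 0.109 with LPS and -1.6 ± 0.0915 when both were given.

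LPS lowered Gm42031, at -2.37 ± 0.0961 in KO (adjusted p = 2.04e-27, edgeR) and -2.68 ± 0.0769 in WT (adjusted p = 7.9e-34, edgeR). Dexamethasone lowered it, at -0.97 ± 0.0795 in KO (adjusted p = 6.09e-15, edgeR) and -1.38 ± 0.0675 in WT (adjusted p = 2.51e-23, edgeR). Given together with LPS the same agent went the other way: both against LPS gave 0.51 ± 0.118 in KO (adjusted p = 0.000446, edgeR) and 0.83 ± 0.0849 in WT (adjusted p = 3.14e-12, edgeR).

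Gm42047 (ENSMUSG00000110631) lies at chr8:122559986-122567917 on the plus strand. KO libraries held 74.9 to 83.8 CPM in control and WT libraries 125 to 132 CPM. With dexamethasone they held 40.8 to 50.8 CPM in KO and 70.9 to 76.9 CPM in WT. With LPS they held 38.4 to 44.5 CPM in KO and 57.5 to 78.5 CPM in WT. With both they held 34.5 to 40.5 CPM in KO and 59.5 to 68.9 CPM in WT. Genotypes never overlapped, and the difference was -0.72 ± 0.0638, -0.75 ± 0.0689, -0.74 ± 0.0717 and -0.73 ± 0.0717 in the order control, dexamethasone, LPS and both. LPS lowered it, at -0.93 ± 0.0701 in KO (adjusted p = 8.27e-17, edgeR) and -0.91 ± 0.0654 in WT (adjusted p = 1.49e-17, edgeR). Dexamethasone lowered it, at -0.82 ± 0.0685 in KO (adjusted p = 1.26e-14, edgeR) and -0.79 ± 0.0643 in WT (adjusted p = 5.69e-15, edgeR). Adding dexamethasone to LPS gave -0.12 ± 0.0753 in KO (adjusted p = 0.235, edgeR) and -0.12 ± 0.0682 in WT (adjusted p = 0.116, edgeR). The WT value was called without the filter for low counts (-0.12, adjusted p = 0.0473, edgeR) and without WT LPS replicate 1 or 3 or WT dexamethasone plus LPS replicate 4 (-0.2 to -0.16; adjusted p over all alternatives 0.00564 to 0.79). WT LPS replicate 3 was the lowest WT library with LPS here, at 57.5 CPM, and without it LPS against control in WT was -0.83 and the KO minus WT difference with LPS -0.81.

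**Figure D2:**
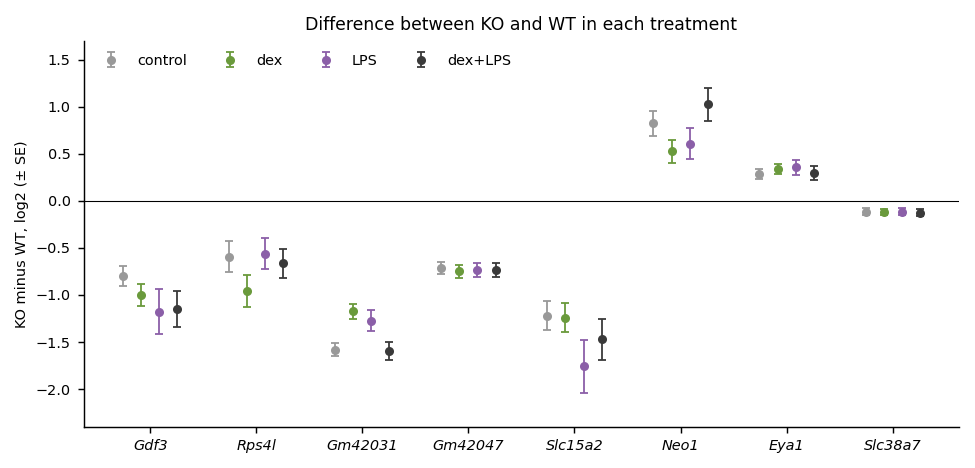
KO minus WT difference (log2, points with SE bars) of 8 genes in the 4 treatments; Capn11 is left out because 2 KO groups hold no count. In this fit without a lane term, Gm42047, Eya1 and Slc38a7 keep nearly 1 value over the treatments, from -0.72 to -0.75, 0.28 to 0.36 and -0.11 to -0.13, while Gm42031 runs from -1.17 to -1.6. With lane as a term Gm42047 runs from -0.74 in control to -0.99 with LPS and with both, Eya1 from 0.25 to 0.33 and Slc38a7 from -0.1 to -0.12. The SE is then wider with LPS: -0.99 ± 0.128 for Gm42047, 0.31 ± 0.114 for Eya1 and -0.1 ± 0.069 for Slc38a7. Rps4l is at -0.4 ± 0.36 with LPS and -0.5 ± 0.356 with both. The lane term rests on 1 KO dexamethasone library.

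Across the genes, all 9 had KO and WT libraries that did not overlap in any of the 4 treatments, which is how they were chosen, and 18 of the 14427 tested genes (0.125%) did so in 1 direction. Within single treatments, non-overlap held for 5.73% of tested genes in control, 7.67% under dexamethasone, 10.7% under LPS and 51.3% under both agents. The genotype comparison called 7 of the 9 in control, where 0.541% of tested genes were called (0.243% higher and 0.298% lower in KO). It called 8 with dexamethasone (0.901% of tested genes, 0.541% higher and 0.36% lower), 9 with LPS (10.2%, 4.66% higher and 5.51% lower) and 9 with both (56.4%, 28.5% higher and 27.9% lower). The choice used this comparison, so these counts carry no weight of their own. Slc38a7 missed the threshold in control and with dexamethasone, and Rps4l missed it in control. Called in all 4 treatments in 1 direction were 11 genes (0.0762%), 7 of the 9 together with Axl, Colec12, Fmr1nb and Rxra. On lane 3 libraries alone, the difference was -1.64 in control and -1.24 with dexamethasone for Gm42031, -1.11 and -1.2 for Slc15a2, -0.77 and -0.99 for Gdf3, and 0.86 and 0.50 for Neo1.

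Inside and outside the choice, the gap between genotypes (the lowest log2 CPM of the higher genotype minus the highest of the lower one, at its smallest over the treatments) was 0.70 for Gm42031, 0.56 for Slc15a2, 0.43 for Capn11, 0.37 for Gm42047, 0.18 for Gdf3 and 0.11 for Eya1. It was 0.057 for Rps4l, 0.039 for Neo1 and 0.026 for Slc38a7. The closest gene outside the 9 was 3830403N18Rik on the X chromosome, with a gap of 0.049 and differences of -1.17, -1.45, -2.41 and -1.69 in the order control, dexamethasone, LPS and both. Next came Sdc1, the gene of the proteoglycan syndecan-1 (0.033), Pltp, which encodes a phospholipid transfer protein (0.031), Napsa, the gene of the protease napsin A (0.025), and Ptafr, which encodes the platelet-activating factor receptor (0.016). Xlr, Serp1 and Colec12 had gaps of 0.011, 0.0093 and 0.0075. The gaps of Neo1 and Slc38a7 thus lie among those of genes that were not chosen.

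**Figure D3:**
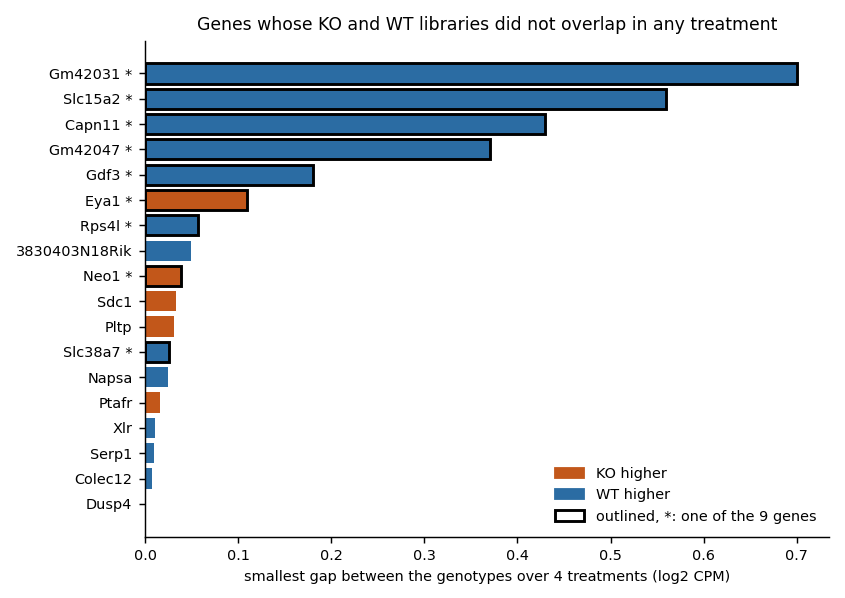
Smallest gap between KO and WT libraries over the 4 treatments (log2 CPM, linear axis from 0) for the 18 genes whose genotypes never overlap, orange where KO is higher and blue where WT is higher; outlined bars with an asterisk are the 9 genes. Gm42031 (0.70), Slc15a2 (0.56), Capn11 (0.43) and Gm42047 (0.37) stand above the rest, and below Rps4l (0.057) Neo1 and Slc38a7 stand among genes outside the 9.

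Per kb of exon, the level in control ran from 0.290 CPM for Capn11 to 42.6 CPM for Gm42031 in WT. In KO control cells Slc38a7 was highest, at 20.7 CPM per kb, followed by Gm42031 at 14.2 and Gm42047 at 13.9 CPM per kb. In WT control cells Gm42047 (22.9 CPM per kb) and Slc38a7 (22.4 CPM per kb) followed Gm42031. Of the remaining genes, Eya1 was at 7.81 CPM per kb in KO and 6.42 in WT, Gdf3 at 3.19 in KO and 5.57 in WT, Rps4l at 2.07 in KO and 3.13 in WT, Neo1 at 0.918 in KO and 0.523 in WT, and Slc15a2 at 0.352 in KO and 0.822 in WT.

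The response to treatment within a genotype is a contrast that the choice did not use, although the treated libraries are the same. LPS against control called 7 of the 9 genes in KO, where 76.1% of tested genes were called (36.8% higher and 39.3% lower). It called 7 in WT (75.7% of tested genes, 37.4% higher and 38.3% lower). In each genotype these were the falls of Gdf3, Gm42031, Slc15a2, Eya1, Neo1 and Gm42047 and the rise of Slc38a7, which turns into a fall when libraries are scaled by their totals alone. Without Capn11, the median log2 fold change was -1.53 in KO and -1.41 in WT, against -0.03 in KO and -0.02 in WT over all tested genes. The share of the 9 that was called is close to the background in each genotype. Without WT LPS replicate 3, 7 of the 9 were called with LPS against control in WT (73.7% of tested genes) and 5 with both against LPS in WT (66.6%), 8.14% of tested genes were called between genotypes with LPS, and the 9 kept KO and WT libraries that did not overlap in any treatment. The KO minus WT differences with LPS were then -1.23 for Gm42031, -1.72 for Slc15a2, -0.58 for Rps4l, 0.36 for Eya1 and -0.12 for Slc38a7.

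Dexamethasone against control called 4 genes in KO (48.5% of tested genes, 20.9% higher and 27.6% lower), all lower, which were Gm42031, Gm42047, Gdf3 and Eya1. In WT it called 4 (49.4%, 21.2% higher and 28.2% lower), namely Gm42031, Gm42047 and Eya1 lower and Neo1 higher. The median without Capn11 was -0.27 in KO and -0.06 in WT, against -0.02 over all tested genes in each. Dexamethasone plus LPS against LPS called 3 genes in KO (38.1%, 20.8% higher and 17.3% lower), Slc15a2, Gdf3 and Gm42031, all higher. It called 5 in WT (69.2%, 34.6% higher and 34.5% lower), Gm42031, Gdf3, Slc15a2 and Rps4l higher and Neo1 lower. The KO count fell to 1 without KO LPS replicate 1 or without KO LPS replicate 2. The shares of the 9 called are near or below the background in these contrasts too.

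Both agents against dexamethasone alone called 8 genes in KO (75.9%, 38.5% higher and 37.4% lower) and 8 in WT (73.3%, 35.5% higher and 37.8% lower). Higher in each genotype were Rps4l and Slc38a7, with Slc38a7 turning to -0.11 in KO and -0.06 in WT when scaled by library totals alone, and the other 6 were lower. Eya1, for example, fell by 1.87 in KO (adjusted p = 5.11e-31, edgeR) and 1.82 in WT (adjusted p = 1.49e-29, edgeR), and Neo1 fell by 1.40 in KO (adjusted p = 3.51e-13, edgeR) and 1.90 in WT (adjusted p = 4.7e-15, edgeR). Gm42047 had the smallest fall, by 0.23 in KO (adjusted p = 0.00516, edgeR; -0.16 and not called without KO dexamethasone replicate 4) and 0.24 in WT (adjusted p = 0.00122, edgeR).

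**Figure D4:**
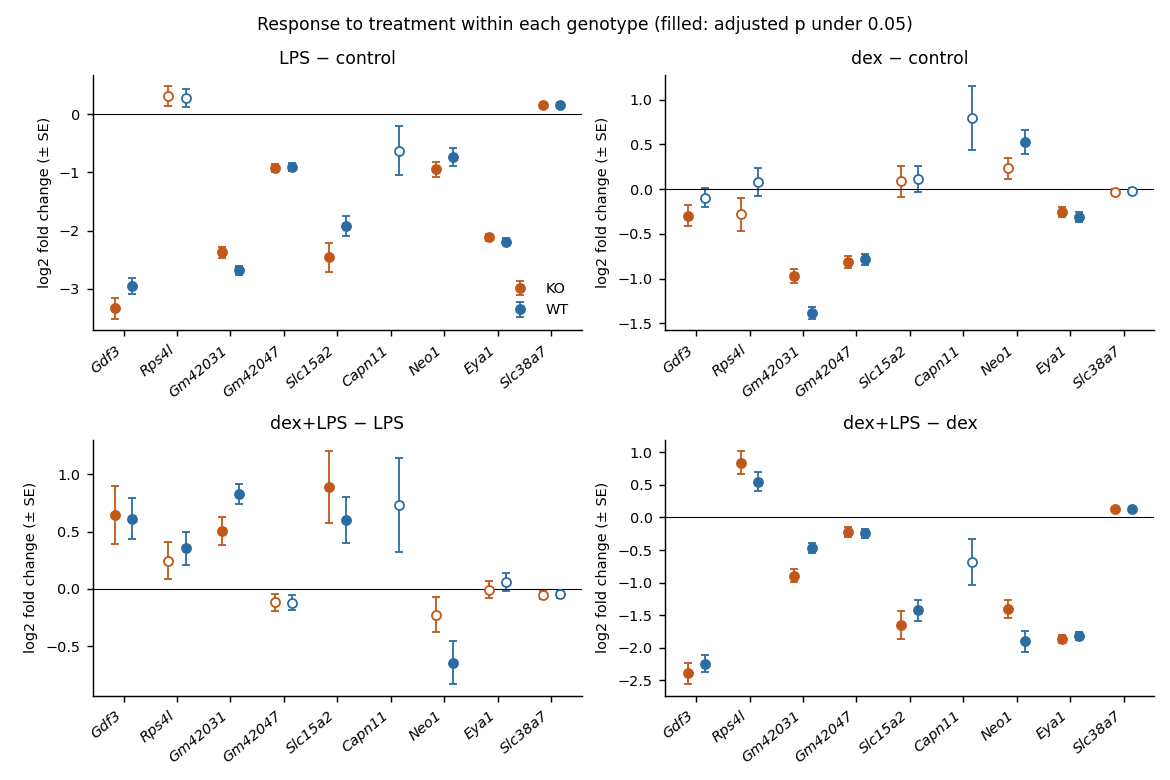
Log2 fold change with SE of each gene in 4 treatment contrasts, KO left of WT; filled points passed an adjusted p of 0.05 (edgeR), open points did not, and Capn11 is not drawn in KO for want of counts. Gdf3 shows the deepest fall with LPS (-3.33 in KO and -2.95 in WT), and Slc38a7 lies slightly above 0 with LPS, a direction that turns to -0.09 in KO and -0.11 in WT under scaling by library totals alone.

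The genes closest in profile over the 32 libraries were found by Pearson's r of log2 CPM. These coefficients are descriptive, since the libraries share treatment groups and the genes share libraries and their depth. Gm42031 and Gm42047 were near each other (r = 0.906), as were Slc15a2 and Gdf3 (r = 0.918) and Slc15a2 and Gm42031 (r = 0.896). Eya1 was closest to Wipf1 (r = 0.991) and Snx8 (r = 0.989), and Gdf3 to Gdi2 (r = 0.958) and Colec12 (r = 0.957). Neo1 was closest to Hgf (r = 0.916) and Mnt (r = 0.896), Slc38a7 to Rad17 (r = 0.817) and Mtrr (r = 0.814), Rps4l to Mpc1 (r = 0.742) and Slc38a7 (r = 0.739), Gm42031 to Cnbd2 (r = 0.934), and Gm42047, after Gm42031, to Dnaaf3 (r = 0.853). Capn11 was closest to Fmr1nb (r = 0.793) and 3830403N18Rik (r = 0.766), both on the X chromosome. Fmr1nb had 1 count in all KO libraries, in the group with LPS. In WT it had 29 counts in control libraries, 21 under dexamethasone, 22 under LPS and 34 when both were given.

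The 9 genes lie on 6 chromosomes, and none is on chromosome 14 with Acod1. Gdf3 and Rps4l share chromosome 6 at a distance of 25.7 Mb. Chromosome 8 holds 3 of them, Gm42031 and Slc38a7 10.7 Mb apart and Slc38a7 and Gm42047 26 Mb apart. None shares an exon base with another gene in the table. Besides the genes named above, Slc15a2 is overlapped by Gm8425 on the opposite strand, listed at 0 CPM, Neo1 by the antisense gene Gm47271 at 0.0201 CPM, and Eya1 by Gm37444 at 0.00571 CPM and ENSMUSG00002075819 at 0.0357 CPM. Reads were counted without regard to strand, so reads of a gene and of an overlapping one on the other strand are separated by exon position alone.

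The nearest tested gene on each side of each of the 9 was not called between genotypes in control or with dexamethasone. Next to Capn11, 846 bases away, was Tmem63b, which differed by 0.01 in control and -0.04 with dexamethasone (adjusted p = 0.985 and 0.875, edgeR). Gm42031 lay 2777 bases from Zfp791, with 0.17 in control and -0.40 with dexamethasone (adjusted p = 0.947 and 0.763, edgeR). Apobec1, 2959 bases from Gdf3, gave -0.07 and -0.04 (adjusted p = 0.436 and 0.676, edgeR). Klhdc4, 3678 bases from Gm42047, gave 0.01 and -0.04 (adjusted p = 1.0 and 0.919, edgeR), and Sap18b, 9786 bases from Slc38a7, gave -0.50 and -0.07 (adjusted p = 0.774 and 0.986, edgeR). Where both agents were given, many of these genes did differ, such as Tmem63b by 0.69 (adjusted p = 6.01e-20, edgeR) and Klhdc4 by -0.39 (adjusted p = 4.04e-07, edgeR).

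Within 1 Mb of the 9 genes, 213 other genes were tested. In control 1 of them (0.469%) was called, Clec4e, 671702 bases from Gdf3 and lower in KO (-0.19, adjusted p = 0.0232, edgeR). With dexamethasone 3 were called (1.41%), Cdt1 (0.26) and Vegfa (0.32) higher and Man2b1 (-0.13) lower. With LPS 23 were called (10.8%), and with both 131 (61.5%). Over all tested genes the shares were 0.541% in control, 0.901% under dexamethasone, 10.2% under LPS and 56.4% under both agents. In all 4 treatments in 1 direction, edgeR called 0 neighbours (0 at an unadjusted p under 0.05 in all 4, 0 by DESeq2). Within 5 Mb of Acod1 on chromosome 14, edgeR called 0 of 27 tested genes in control (1 at an unadjusted p under 0.05, 0 by DESeq2) and 0 with dexamethasone (3 at an unadjusted p under 0.05, 0 by DESeq2). It called 6 of the 27 with LPS (22.2%, against 10.2% of all tested genes) and 12 with both (44.4%, against 56.4%).

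**Figure D5:**
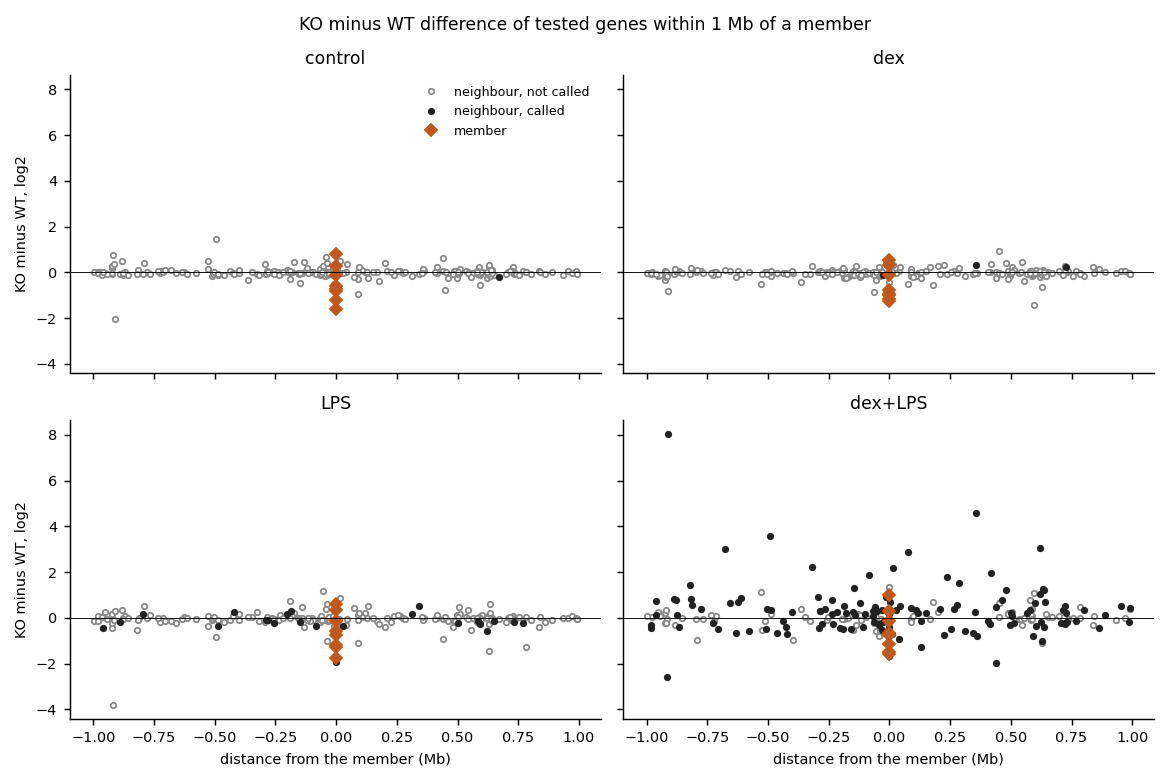
KO minus WT difference (log2) of tested genes within 1 Mb of one of the 9 genes against the distance from it in Mb, by treatment; filled circles are called neighbours, open circles are not, and orange diamonds at 0 Mb are the genes themselves without Capn11. In control 1 neighbour and with dexamethasone 3 are called, at differences of -0.19 to 0.32, while with both agents 131 of 213 are.

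Relatives and partners of the 9 were followed in 7 lists. Of their 50 tested genes, edgeR called 0 in control (5 at an unadjusted p under 0.05, 0 by DESeq2) and 0 with dexamethasone (2 at an unadjusted p under 0.05, 1 by DESeq2). With LPS 12 were called (24%, against 10.2% of all tested genes) and with both 40 (80%, against 56.4%), and 0 were called in all 4 treatments in 1 direction (0 at an unadjusted p under 0.05, 0 by DESeq2). Of 13 tested genes of the activin and nodal pathway, 6 rose and 6 fell with LPS against control in each genotype. In this contrast 36.8% of all tested genes rose and 39.3% fell in KO, and 37.4% rose and 38.3% fell in WT, against which the counts of this list and of the ribosomal, Slc38, calpain and neogenin lists below stand. Inhba, which encodes the activin A subunit, rose by 11.87 in KO (adjusted p = 3.62e-50, edgeR) and 12.17 in WT (adjusted p = 2.45e-51, edgeR). With both agents it averaged 318 ± 36.3 CPM in KO and 2.99 ± 0.156 CPM in WT (SD, n = 4 each). Acvr1b, a type I receptor for activin, rose by 1.80 in KO (adjusted p = 7.67e-38, edgeR) and 1.83 in WT (adjusted p = 6.73e-38, edgeR). Of 10 ribosomal protein genes, 9 fell and 1 rose with LPS in each genotype.

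The other tested peptide transporters, 2 of 4 in the list, moved in opposite directions with LPS. Slc15a3, a transporter of endosomes and lysosomes, rose by 2.56 in KO (adjusted p = 3e-44, edgeR) and 2.94 in WT (adjusted p = 1.93e-46, edgeR), while Slc15a4, of the same compartments, fell by 1.38 in KO (adjusted p = 4.42e-35, edgeR) and 1.6 in WT (adjusted p = 1.41e-37, edgeR). Of 5 tested amino acid transporters of the Slc38 family, 2 rose and 3 fell with LPS in each genotype, and the growth-linked Slc38a2 fell by 0.82 in KO (adjusted p = 4.97e-24, edgeR) and 0.81 in WT (adjusted p = 6.69e-24, edgeR). Of 8 calpain genes with calpastatin, 2 rose and 6 fell in each genotype. Of 7 tested genes in a list of neogenin ligands, co-receptors and relatives, 3 rose in each genotype, and 3 fell in KO and 2 in WT. Those that rose were Unc5b, Unc5c and Hamp. Unc5c averaged 0 CPM in control in each genotype and 1.0 CPM in KO and 0.75 CPM in WT with LPS. Hamp, at or near 0 in control, averaged 1.14 CPM in KO and 2.68 CPM in WT with LPS. The ligand gene Ntn1 was not called, at -0.12 in KO (adjusted p = 0.753, edgeR) and 0.41 in WT (adjusted p = 0.382, edgeR). Rgmb, a neogenin ligand, fell by 0.16 in KO (adjusted p = 0.0194, edgeR), with -0.02 in WT (adjusted p = 0.836, edgeR).

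Eya4, a paralogue of Eya1, fell with LPS, at -2.26 in KO (adjusted p = 2.1e-18, edgeR) and -2.17 in WT (adjusted p = 7.26e-18, edgeR), and its KO minus WT difference was -0.03 in control (adjusted p = 0.986, edgeR) and -0.03 with dexamethasone (adjusted p = 0.978, edgeR). Eya3 changed by -0.05 in KO (adjusted p = 0.32, edgeR) and -0.07 in WT (adjusted p = 0.149, edgeR) with LPS. Of 10 genes reported to differ between C57BL/6 substrains, 9 were in the table and 5 were tested: Wdfy1, Ide, Fgfbp3, Cyfip2 and Herc2. Between genotypes edgeR called none of them in control (1 at an unadjusted p under 0.05, 0 by DESeq2). It called none with dexamethasone or LPS (0 at an unadjusted p under 0.05 and 0 by DESeq2 in each). With both it called 3 (60%, against 56.4% of all tested genes). Whether the reported differences show in RNA level was not examined, so the source of the animals was not tested with these genes.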

How the data were processed

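The authors counted messenger RNA reads of 32 macrophage libraries by gene. The deposited file gives raw counts, with exon length in a further column. Per the file headers, featureCounts 2.0.0 counted fragments over GENCODE vM32 exons without strand and with no option for multi-mapping or multi-overlapping reads. The submitters' processing notes name STAR and the builds GRCm38 and mm10. Since vM32 belongs to a later build, gene positions are as deposited, and RefSeq positions are those of GRCm38.p6. Names came from GENCODE vM21, and 4924 genes with 0.846% of counts kept their identifiers.

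Libraries were grouped by the labels. Low genes were dropped with filterByExpr in edgeR 4.0.16 (R 4.3.3), TMM scaling was used, and all 8 groups entered 1 quasi-likelihood model (24 residual degrees of freedom, biological coefficient of variation 4.36%), with Benjamini-Hochberg adjustment within each contrast. A fit of the WT LPS and WT control groups alone was tested on counts simulated with known changes. That test covered neither the 8-group model nor the KO contrasts, and it changed no genes with low counts. Replicates differed beyond sampling noise (chi-square per degree of freedom 2.01 to 5.57, and 16.1 to 16.7 for the 3 pairs with WT LPS replicate 3). Nothing in the labels says that they came from separate animals, so p-values may measure technical spread alone. Same-numbered libraries did not deviate together (correlations -0.029 to 0.06). Gaps and correlations used log2 CPM with a prior count of 2. Intervals are exact at 95%.

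The 9 genes, the lists and the alternatives (RLE or no scaling, no filter, DESeq2 1.42.0, compared groups alone, replicate block, lane, leaving out each library) were chosen with earlier results of these data known. The lane 3 fit of dexamethasone against control in KO was added after its results. Named beside the 9 were overlapping genes, the 8 next by gap and the 2 closest in profile to each, with the closest relatives. The nearest and called neighbours and other list genes were chosen after their values were seen. Some list results are not reported here.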

Additional observations from a re-analysis of the deposited data

Results flagged for a closer look

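In a group of 4 libraries, a library was singled out where its gap to the nearest other was large for the group's range by Dixon's test at 95%, which chance gives in about 1 of 20 groups. Of 70 groups of these 9 genes with varying values, 4 were singled out, all of KO cells. Gm42031 was at 7.08 CPM in KO replicate 3 with LPS, where the others were at 4.48 to 4.64 CPM. Capn11 was at 0.156 CPM in KO replicate 1 with LPS, from 3 counts, and at 0.0548 CPM in KO replicate 3 with both agents, from 1 count, where the other libraries of each group had 0. Where all other libraries have 0, any count at all gives a gap equal to the range and is singled out. The Capn11 flags therefore follow from the zeros and say nothing further. Eya1 was at 56.0 CPM in untreated KO replicate 1, where the others were at 62.1 to 63.3 CPM. The header name of that library says merged and names no lane. The cause of these 4 values was not tested.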

How the results depend on the processing

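The 9 genes kept non-overlapping genotypes under RLE scaling, without scaling, and without any 1 library (9 to 9 genes). Scaling by library totals alone moved the median of all genes with LPS against control to -0.272 in KO and -0.278 in WT and turned Slc38a7 round: LPS against control gave -0.09 in KO (adjusted p = 0.0206, edgeR) and -0.11 in WT (adjusted p = 0.00485, edgeR), and both agents against dexamethasone gave -0.11 in KO (adjusted p = 0.00684, edgeR) and -0.06 in WT (adjusted p = 0.106, edgeR). It also changed the split of all calls with LPS against control to 3864 higher and 7455 lower in KO, against 5310 and 5667 with TMM, and to 3863 and 7463 in WT, against 5393 and 5530. With both against dexamethasone the split was 4039 and 7223 in KO, against 5559 and 5390, and 3883 and 7080 in WT, against 5123 and 5458. Between genotypes it was 45 higher and 28 lower in control, against 35 and 43, and 1016 and 547 with LPS, against 673 and 795.

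Leaving out single libraries, the number of the 9 called stayed at 7 to 7 for LPS against control in KO and in WT, and ran from 3 to 4 in KO and 4 to 5 in WT for dexamethasone against control, from 1 to 3 in KO and 4 to 6 in WT for both against LPS, and from 7 to 8 in KO and 8 to 9 in WT for both against dexamethasone. The low KO value of 1 came without KO LPS replicate 1 or 2. Within 5 Mb in place of 1 Mb, 3 neighbours were called in control in place of 1, over more genes. The replicate block, in numbers that do not pair the libraries, changed no call of the 9 in the 68 values compared, and no paired reading was made. With lane as a term, Slc38a7 with LPS in KO missed the threshold (0.16, adjusted p = 0.0551, edgeR) and Gm42047 differed by -0.99 between genotypes in both treatments with LPS and Gm42031 by -1.84 with both agents. These values rest on 1 KO dexamethasone library, and for Capn11 the KO against WT differences with LPS and with both could not be fitted there.

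The background of genotype calls varied more. In control 78 genes were called, against 137 without the filter and 121 in the compared groups alone. With dexamethasone 130 were called, against 201, 401, 75 with lane as a term and 82 on lane 3 alone. With LPS 1468 were called, against 667 in the compared groups alone and 112 with lane, and with both 8137, against 4834 with lane. The causes of these shifts were not tested. Depth limits Capn11, with at most 34 counts in a library.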
